A study of Mus musculus with 9 samples.

Results

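The proteins of the cytosolic ribosome are encoded by genes named Rps (small subunit), Rpl (large subunit) and Rplp (the stalk of the large subunit). Genes were taken as members when the array annotation gave their probe set a single symbol of that form, after S6 kinase genes, pseudogene symbols and clone symbols were left out. This gave 68 of the 22180 genes measured, each read by whichever of its probe sets was brightest on average across the 9 arrays. No difference between groups entered this rule. Expression had been measured in N1E-115 cells, a mouse neuroblastoma line of adrenergic character, on 9 arrays in 3 groups of 3. The first group received a pool of siRNAs against Hmgn5, which encodes a nucleosome-binding protein, and was collected after 24 h of differentiation. The second received control siRNA and was also collected at 24 h, and the third received control siRNA and was collected at 4 h. All groups shared the same handling: siRNA at 80 nM, overnight starvation in Neurobasal medium with glutamine and antibiotics, and replating onto laminin laid down at 10 µg/ml, on which the cells put out neurites. The knockdown came from a pool of siRNAs, all groups stem from 1 tumour line, and an Hmgn5 siRNA group at 4 h was not analysed here. The labels do not state whether the 3 samples of a group were grown as separate cultures, so the spread on which all p-values rest may be partly or wholly technical.

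A ribosome consists of a small subunit, which holds the mRNA and decodes it, and a large subunit, which joins the amino acids and releases the chain through an exit tunnel. Each subunit is built in the nucleolus from ribosomal RNA and one copy of nearly every ribosomal protein, and the genes are strongly expressed in growing cells. Most of their mRNAs begin with a C followed by a run of pyrimidines, the 5′ terminal oligopyrimidine (TOP) tract, through which mTORC1 and the RNA-binding protein Larp1 control their translation. In neurons, ribosomes and ribosomal protein mRNAs are also found in neurites.

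The starts of transcription are printed because the pyrimidine tract is the sequence that members of this family are known to share. RefSeq promoter entries (GRCm38.p6) were found for 53 of the 68 genes, with 62 starts among them. Each line gives the 15 bases before the annotated start and the 15 from it on, with a tract that begins at the start in capitals. Only some of the 11 genes with such a tract are printed, and they come first. Rps25 and Rps28 follow, which are described with the time comparison and have none at the annotated base:
Rpl15 (chr14:18270972-18271001, minus strand): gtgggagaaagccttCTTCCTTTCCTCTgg
Rpl35 (chr2:39005117-39005146, minus strand): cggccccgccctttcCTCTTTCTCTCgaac
Rps6 (chr4:86857353-86857382, minus strand): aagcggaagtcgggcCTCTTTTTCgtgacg
Rpl28 (chr7:4792950-4792979, plus strand): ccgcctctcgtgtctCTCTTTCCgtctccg
Rps27 (chr3:90213634-90213663, minus strand): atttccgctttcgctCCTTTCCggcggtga
Rps25 (chr9:44407699-44407728, plus strand): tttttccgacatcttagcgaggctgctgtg
Rps28 (chr17:33824548-33824577, minus strand): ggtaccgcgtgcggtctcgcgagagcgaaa

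A C at the annotated start followed by 4 bases that are each C or T was present at a start of 11 of the 53 genes (20.8%). Over the whole promoter table this held for 813 of 27025 genes (3.01%), and among mitochondrial ribosomal protein genes for 0 of 62. A run of 8 bases that are each C or T lay within 15 bases of the start in 24 of the 53 genes (45.3%), against 13.9% of all genes in the table. Such a run can overlap the tract counted before it. In the full window, from 250 bases before the start to 50 after it, the sequence CCGGAAG on either strand occurred in 22 of the 53 genes (41.5%), against 9.93% of all genes. GGGCGG occurred in 28 of the 53 (52.8%), against 38.2%, and AAGATGGC in 3 (5.66%), against 3.19%. Among the 62 mitochondrial ribosomal protein genes CCGGAAG occurred in 37.1%, GGGCGG in 51.6% and AAGATGGC in 19.4%. These sequences are thus not particular to the members. The pyrimidine run was seen in 12.9% of those 62. These are matches of letters at annotated starts, and an annotation that is off by a few bases hides or makes a tract.

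Pearson's r between arrays lay between 0.978 and 0.995, and 1 array stood apart. Control 4 h replicate 2 was weighted at 0.198 by limma's array weights and the others at 0.789 to 1.74, and among pairs without it r was at least 0.991. The differences it moved most are given with and without it. Hmgn5 itself had 3.53, 3.45 and 3.50 log2 units in Hmgn5 siRNA cells, against 4.77, 4.66 and 4.69 in control cells at 24 h and 4.53, 4.23 and 4.57 at 4 h. It fell by 1.21 on the log2 scale at 24 h (SE 0.09, limma adjusted p = 0.00367), to 43.1% of the control signal, and the groups did not overlap. The probe set is dim and its background was not estimated, so that share is one of signal and not of transcript. The exact permutation p was 0.1, the lower limit of that test with 3 arrays a side. The 6 measured markers of the line lay between 6.51 and 11.68, with Mycn the dimmest at 6.51 to 7.12. Dbh and Th, enzymes of catecholamine synthesis, were among the brighter ones, with 11.11 to 11.27 for Dbh in Hmgn5 siRNA cells, 11.53 to 11.68 in control cells at 24 h and 10.55 to 10.97 at 4 h. All 22 measured markers of glia, fibroblasts, leukocytes and endothelium lay between 3.32 and 7.51. Their mean per array was 4.90 to 4.95 in Hmgn5 siRNA cells, 4.89 to 4.98 in control cells at 24 h and 4.88 to 4.93 at 4 h.

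The 68 genes held 57 of the 76 standard ribosomal proteins sought: 22 of 30 in the small subunit and 35 of 46 in the large subunit, 3 of these in the stalk. A further 10 were paralogues or retrogenes of standard proteins, and 1, Rps19bp1, encodes a protein that binds Rps19 and was matched by its name alone. RefSeq listed 66 of the 68 as protein coding and 2, Rpl6l and Rps4l, as pseudogenes. The genes lay on 19 chromosomes. Of the 19 standard proteins that the 68 did not hold, 12 were read only by probe sets annotated to several genes, which is common in a family with many processed copies, and 7 were not analysed here. Such copies can also share probes with the genes kept, so the value of a single member is less certain than that of an ordinary gene.

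Many members gave strong signals. Their mean log2 signal over 9 arrays lay between 3.11 for Rpl32l and 13.29 for Rps6, the small subunit protein phosphorylated by S6 kinases. In all, 29 of the 68 fell among the 5% of genes with the highest signal. These are signals of probe sets and do not rank the transcripts. The standard proteins had a median signal of 10.16, and the 10 paralogues and retrogenes one of 5.67. Means of standard proteins reached down to 4.13, while 28 of the 57 were among the top 5%. Several described below were dim: Rplp2 at 5.30, Rpl5 at 5.47, Rpl11 at 5.94, Rpl26 at 6.36, Rps15 at 6.41 and Rps29 at 6.57. These means lie within the 3.32 to 7.51 of the markers of other cell types. Background was not estimated, so differences and intervals of such genes may say little about the transcript. The spread between arrays of a group was small and close to that of other genes: the median within-group SD was 0.118 log2 units for members and 0.111 for all genes. It was 0.0842 for the 29 members of high signal and 0.138 for the other 39.

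**Figure D1:**
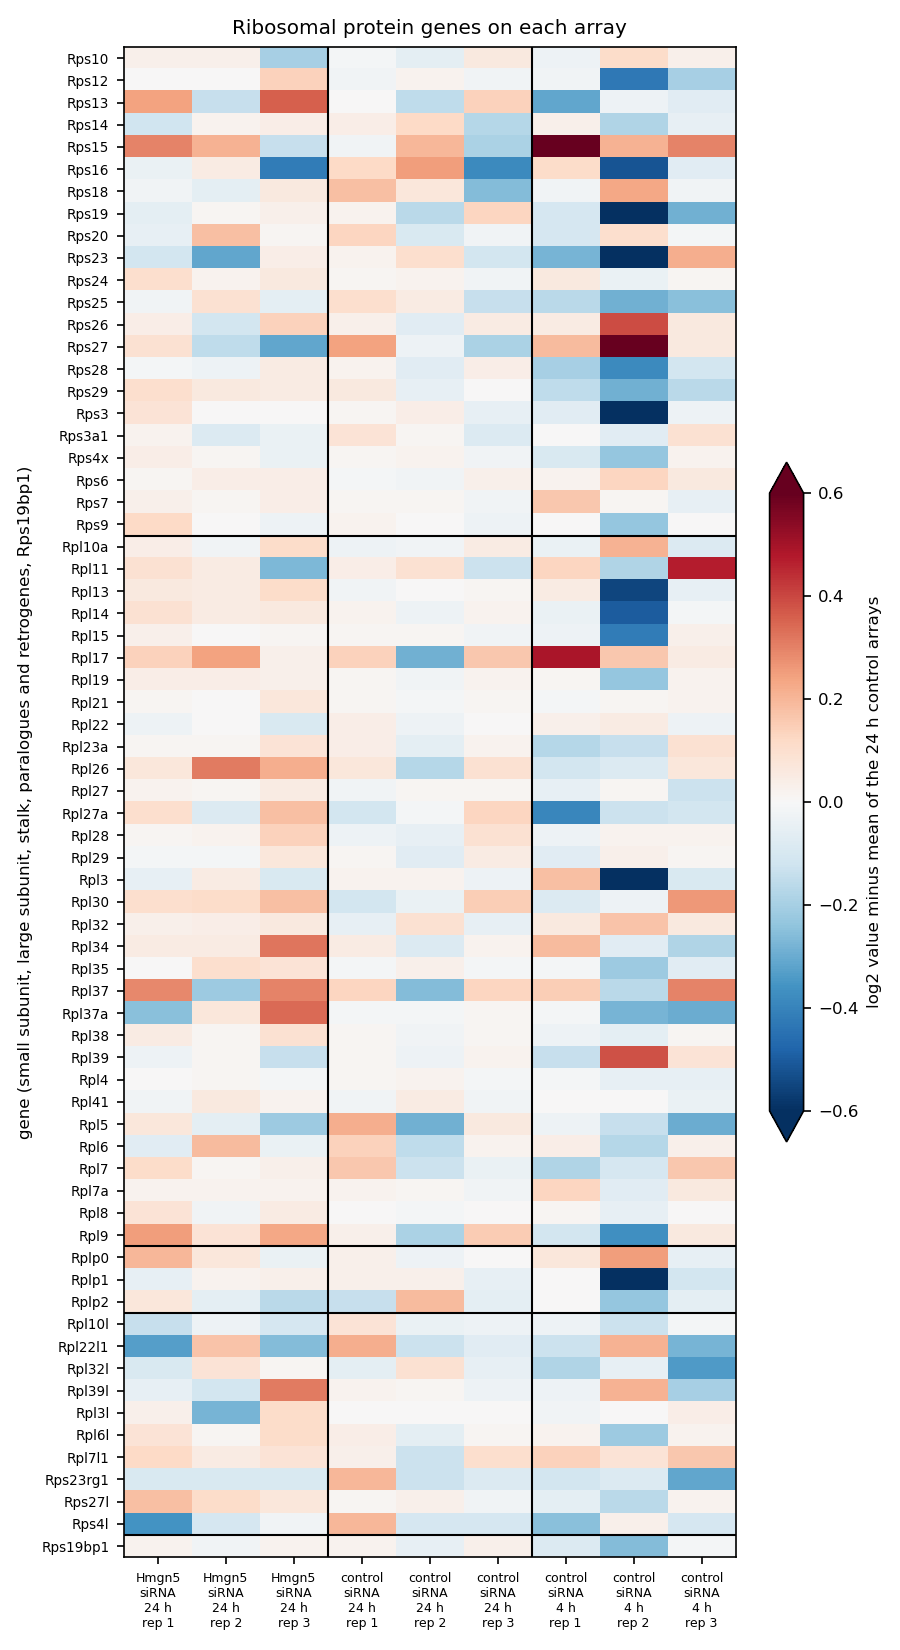
Log2 value of each of the 68 genes (rows) on each of the 9 arrays (columns), minus the mean of the 3 control arrays at 24 h, coloured from blue (lower) to red (higher) and clipped at 0.6; lines divide the protein classes and the groups. The column of control 4 h replicate 2 holds most of the deepest colours, with the lowest of 9 values for 29 of the 68 genes.

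The question of the series is what lowering Hmgn5 changes at 24 h. No ribosomal protein gene passed: of 68 members 0 were called at a limma adjusted p under 0.05, where 3 of 22180 genes (0.0135%) were, Hmgn5 among them, with 0.00902% of genes higher and 0.00451% lower. None reached an unadjusted p under 0.05 either, against 5.25% of all genes, though 1 did under some alternatives, among them the replicate number as a block. The log2 differences between Hmgn5 siRNA and control siRNA ran from -0.16 for Rps4l to 0.20 for Rpl26. Their median was 0.03, with 47 above 0 and 21 below, where all genes had a median of -0.00 and 49.2% above 0. How many lay above 0 moved with the scaling of the arrays, to 38 after cyclic loess and 52 after median centring.

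The change in signal that the intervals of this fit leave room for was small. They bound the signal of probe sets and not the transcript, and they rest on a spread that may be technical. Differences of the 29 members of high signal ran from -0.04 to 0.08, and those of the other 39 from -0.16 to 0.20. The 95% interval of the difference lay within 1.5-fold in either direction for 66 of 68 members (97.1%), close to the 96.8% of all genes. Within 1.2-fold lay 37 members (54.4%), against 47.3% of all genes. The 2 exceptions at 1.5-fold were Rps16, with an interval from -0.59 to 0.32, and Rps27, with one from -0.62 to 0.37. Differences under 0.1 in size were seen for 54 members (79.4%), and for 69.7% of all genes. In a bulk sample, a change in the number of cells of a kind and a change in the RNA per cell cannot be told apart. The arrays were also normalized to a common distribution, so a change shared by most transcripts would not appear.

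**Figure D2:**
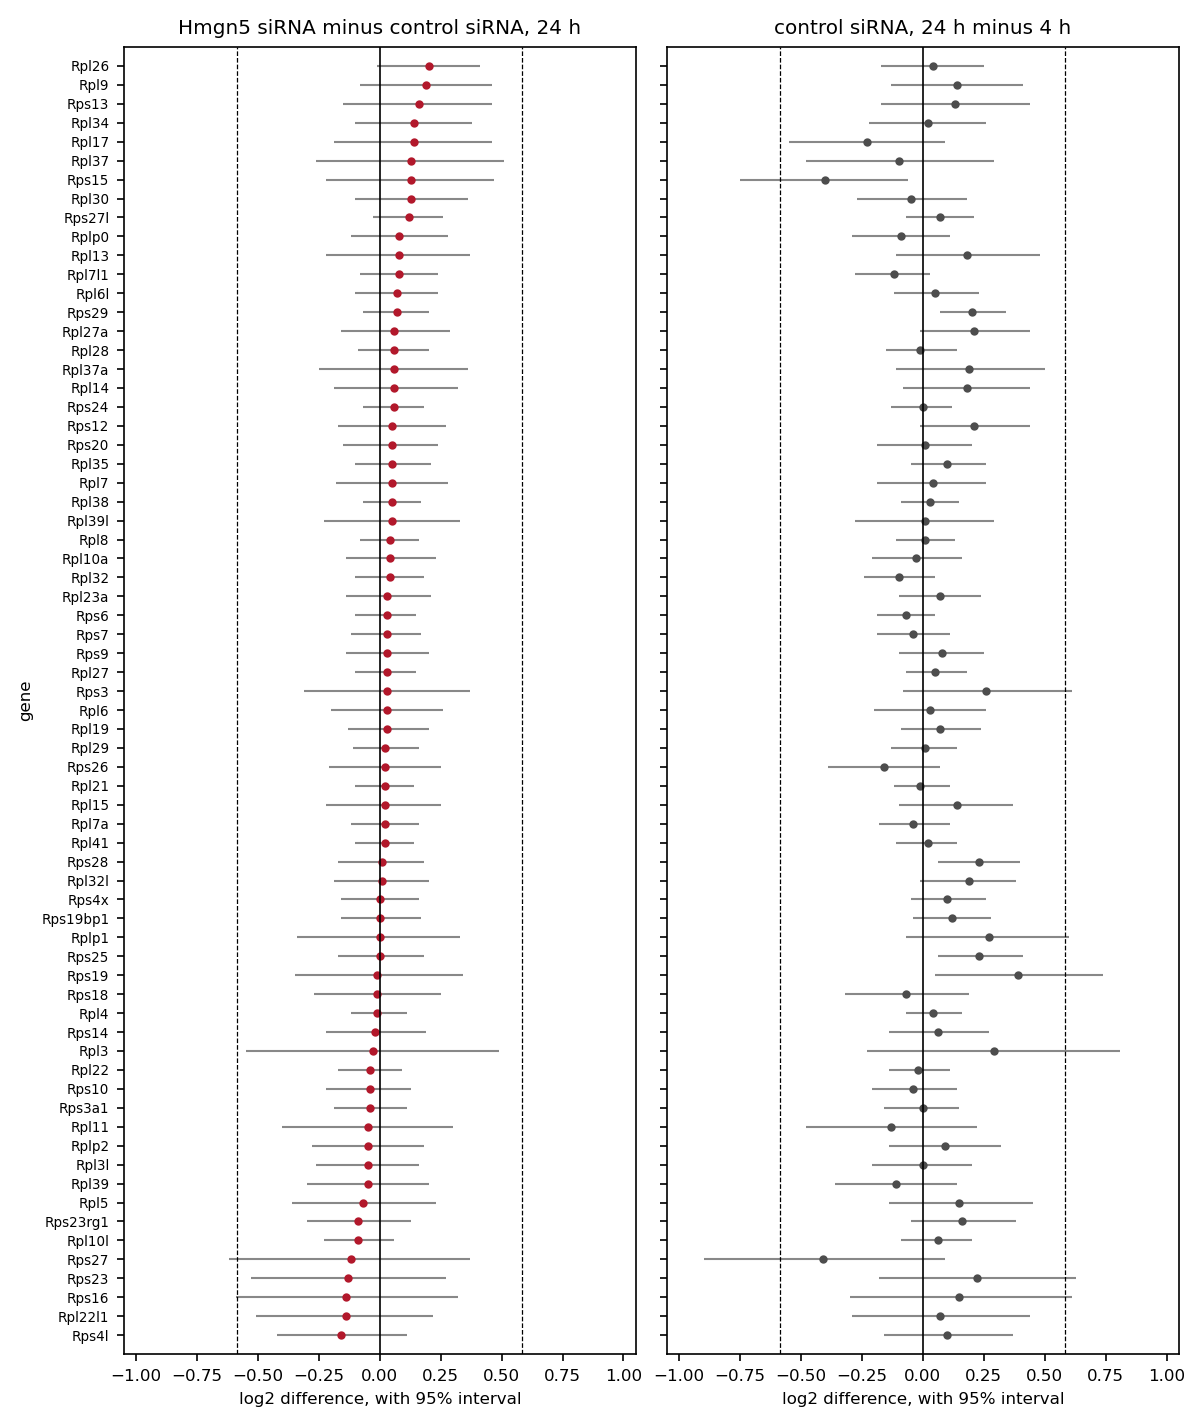
Log2 difference of each of the 68 genes with its 95% interval from the fit over 9 arrays, for knockdown minus control at 24 h (left) and controls at 24 h minus 4 h (right); dashed lines mark 1.5-fold. Genes run from the highest knockdown difference at the top, Rpl26 at 0.20, to the lowest at the bottom, Rps4l at -0.16, and on the left 66 of the 68 intervals stay between the dashed lines.

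Small subunit genes lay on both sides of 0 at knockdown. Of 22, 14 lay above 0 and 8 below, from -0.14 to 0.16 with a median of 0.01 and 0 called, and the sign of that median turned to -0.00 after cyclic loess, when 10 lay above 0. The largest difference was that of Rps13, at 0.16 (SE 0.13). Rps6 had 13.27, 13.30 and 13.30 in Hmgn5 siRNA cells, against 13.25, 13.24 and 13.29 in control cells at 24 h. These groups overlapped, and the difference was 0.03 with an interval from -0.10 to 0.15. Rps3, which lies at the entry of the mRNA channel, had 10.74, 10.66 and 10.66 in Hmgn5 siRNA cells and 10.67, 10.70 and 10.61 in control cells. Rps19, the protein most often mutated in human Diamond-Blackfan anaemia, differed by -0.01 (interval -0.35 to 0.34).

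Large subunit genes, with the stalk, lay above 0 in 27 of 35 cases, from -0.07 to 0.20 with a median of 0.04 and 0 called. After cyclic loess 23 lay above 0, with a median of 0.02, and after median centring 29, with a median of 0.06. The smallest p of all members was that of Rpl26, a protein near the exit tunnel that in human cells also binds the p53 mRNA. It had 6.38, 6.62 and 6.53 in Hmgn5 siRNA cells, against 6.38, 6.14 and 6.40 in control cells at 24 h and 6.20, 6.23 and 6.38 at 4 h. Hmgn5 siRNA replicates 2 and 3 were its highest arrays, while replicate 1 lay within the range of the control arrays, so the groups overlapped. The difference was 0.20 (SE 0.09, interval -0.01 to 0.41, limma adjusted p = 0.97). Rpl9 differed by 0.19 (SE 0.12), Rpl34 by 0.14 (SE 0.11) and Rpl30 by 0.13 (SE 0.10), none of them past the threshold. Rpl5 and Rpl11, which together with their ribosomal RNA bind and restrain Mdm2, differed by -0.07 and -0.05. Rpl38, which mouse embryos need for translation of Hox mRNAs, had 12.06, 12.02 and 12.10 in Hmgn5 siRNA cells, against 12.02, 11.99 and 12.02 in control cells. The values of this gene touch between groups, and its interval ran from -0.07 to 0.17.

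The stalk, a flexible arm that brings elongation factors to the ribosome, has 3 proteins, and all 3 were measured. Rplp0, its base, had 11.07, 10.94 and 10.83 in Hmgn5 siRNA cells, against 10.90, 10.84 and 10.87 in control cells at 24 h. Rplp1, which binds Rplp0 as a pair with Rplp2, had 11.15, 11.22 and 11.23 in Hmgn5 siRNA cells, against 11.23, 11.23 and 11.15 in control cells. Rplp2 had 5.42, 5.29 and 5.19 in Hmgn5 siRNA cells, against 5.21, 5.54 and 5.29 in control cells. The groups overlapped for all 3, with differences of 0.08 for Rplp0, -0.00 for Rplp1 and -0.05 for Rplp2 (SE 0.09, 0.15 and 0.10). Dimmer probe sets gave 0.12 for Rplp0 and 0.23 for Rplp1 (limma adjusted p = 0.994 and 0.984). The latter is larger than the difference of any member by its brightest probe set.

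In only 4 members did the Hmgn5 siRNA arrays all lie on one side of the control arrays at 24 h: Rps27l, Rpl13, Rpl14 and Rpl19, all with the knockdown higher. Among all genes 12.3% were separated in that way, 6.65% with the knockdown higher and 5.62% with it lower. Rps27l, a paralogue of Rps27 that human p53 induces, had 8.42, 8.35 and 8.31 in Hmgn5 siRNA cells, against 8.25, 8.27 and 8.22 in control cells at 24 h and 8.18, 8.08 and 8.26 at 4 h. Its difference was 0.12 (SE 0.06, interval -0.03 to 0.26, limma adjusted p = 0.979). Rps27 itself, which lacks such a separation, differed by -0.12 (SE 0.22). Rpl13 and Rpl14, proteins of the large subunit, differed by 0.08 and 0.06, and Rpl19, which forms a bridge to the small subunit, by 0.03. Rpl19 shows how narrow such a separation can be: it had 12.86, 12.86 and 12.85 in Hmgn5 siRNA cells, against 12.83, 12.80 and 12.84 in control cells.

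The 10 paralogues and retrogenes split evenly at knockdown, 5 above 0 and 5 below, with 0 called. Rpl22l1, a paralogue that in mice can take the place of Rpl22, had 5.96, 6.46 and 6.03 in Hmgn5 siRNA cells, against 6.51, 6.16 and 6.22 in control cells at 24 h. The groups overlapped, and the difference was -0.14 (SE 0.16), beside -0.04 (SE 0.06) for Rpl22. Rpl3l, the form of Rpl3 found in striated muscle, had a signal of 4.73 to 5.12 on all 9 arrays. Rpl10l, a retrogene used in the male germ line, lay between 3.19 and 3.41. Rpl39l, which is also known from testis, gave a higher signal, at 7.18, 7.12 and 7.54 in Hmgn5 siRNA cells and 7.25, 7.24 and 7.20 in control cells. Rpl7l1, which takes part in making the large subunit, differed by 0.08 (SE 0.07), and Rps19bp1 by 0.00 (SE 0.07).

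The second question is what changed between 4 h and 24 h in control cells. The same 24 h control arrays enter both comparisons with opposite sign. Again 0 of 68 members were called by limma, here where 963 of 22180 genes (4.34%) were, 2.17% higher and 2.17% lower at 24 h. An unadjusted p under 0.05 was reached by 5 members, against 18.0% of all genes. The differences, 24 h minus 4 h, ran from -0.41 for Rps27 to 0.39 for Rps19, with 45 above 0, 23 below and a median of 0.05. All genes had a median of 0.02, with 54.9% above 0. Without control 4 h replicate 2 the median of members was 0.02, with 40 above 0 and still 0 called. The 95% interval lay within 1.5-fold for 60 members (88.2%), against 91.1% of all genes, and within 1.2-fold for 31 (45.6%), against 36.8%.

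**Figure D3:**
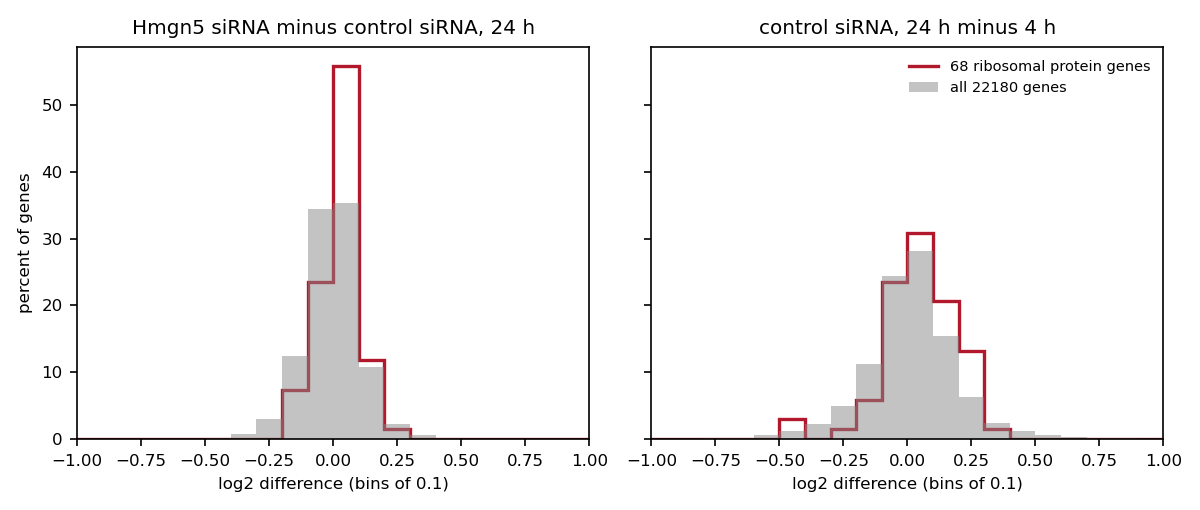
Percent of genes (vertical) in bins of 0.1 of the log2 difference (horizontal), for the 68 ribosomal protein genes (red line) and all 22180 genes (grey, shown between -1 and 1), at knockdown (left) and over time (right). The members' medians of 0.03 and 0.05 lie close to the -0.00 and 0.02 of all genes, and no member goes beyond -0.41 or 0.39.

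All 5 members with an unadjusted p under 0.05 over time belong to the small subunit, 22.7% of its 22 genes, where 18.0% of all genes reached that p. Without control 4 h replicate 2 there were again 5, with Rps19 replaced by the retrogene Rpl32l. The count was 3 without control 24 h replicate 1, 9 without control 4 h replicate 1 and 12 without control 4 h replicate 3. Rps29, a small zinc-binding protein of the subunit's head, had 6.67, 6.56 and 6.61 in control cells at 24 h, against 6.46, 6.32 and 6.45 at 4 h. All 24 h values lay above all 4 h values, by a mean of 0.20 (SE 0.06, interval 0.07 to 0.34, limma adjusted p = 0.108). Rps25, which many viral mRNAs need for internal initiation, had 8.33, 8.28 and 8.09 at 24 h, against 8.07, 7.94 and 7.98 at 4 h. These groups were apart too, though narrowly, with a difference of 0.23 (SE 0.08, adjusted p = 0.144). Rps28, a neighbour of the mRNA exit, had 11.89, 11.80 and 11.91 at 24 h, against 11.67, 11.49 and 11.76 at 4 h. The groups were apart by a mean of 0.23 (SE 0.08, adjusted p = 0.144). A dimmer Rps28 probe set, described below, went the other way, by -0.26. Without control 4 h replicate 2 the differences of Rps29, Rps25 and Rps28 were 0.16, 0.21 and 0.15.

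The other 2 of these 5 differed in opposite directions. Rps19 had 11.13, 10.95 and 11.24 at 24 h, against 11.01, 10.31 and 10.82 at 4 h. The groups overlapped, because 4 h replicate 1 exceeded 24 h replicate 2, and the difference was 0.39 (SE 0.16, limma adjusted p = 0.213). It was 0.19 without control 4 h replicate 2 (limma adjusted p = 0.318). Rps15, whose tail reaches towards the decoding site, was the one member with all 24 h arrays below all 4 h arrays. It had 6.22, 6.44 and 6.05 at 24 h, against 6.93, 6.45 and 6.54 at 4 h. The difference was -0.40 (SE 0.15, interval -0.75 to -0.06, adjusted p = 0.202), and -0.50 without control 4 h replicate 2.

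Groups of arrays were apart for 7 members over time, against 21.3% of all genes (11.3% higher and 9.98% lower at 24 h). Beside Rps29, Rps25, Rps28 and Rps15 these were Rpl27a, Rpl37a and Rpl4, all higher at 24 h. Rpl37a, a zinc-binding protein of the large subunit, had 7.20, 7.20 and 7.22 at 24 h, against 7.20, 6.93 and 6.91 at 4 h. Its separation rested on the third decimal, and the difference was 0.19 (SE 0.14). Rpl4, which lines the exit tunnel, differed by 0.04 (SE 0.05) and Rpl27a by 0.21 (SE 0.10). Among the 35 large subunit genes 23 lay above 0, with a median of 0.03, and 0 had an unadjusted p under 0.05. Among the 22 small subunit genes 13 lay above 0, with a median of 0.07. Without control 4 h replicate 2 both medians were 0.01, with 20 of 35 and 12 of 22 genes above 0. After median centring they were 0.00 for the large subunit, with 18 genes above 0, and 0.04 for the small subunit. The difference between the subunits was not tested.

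**Figure D4:**
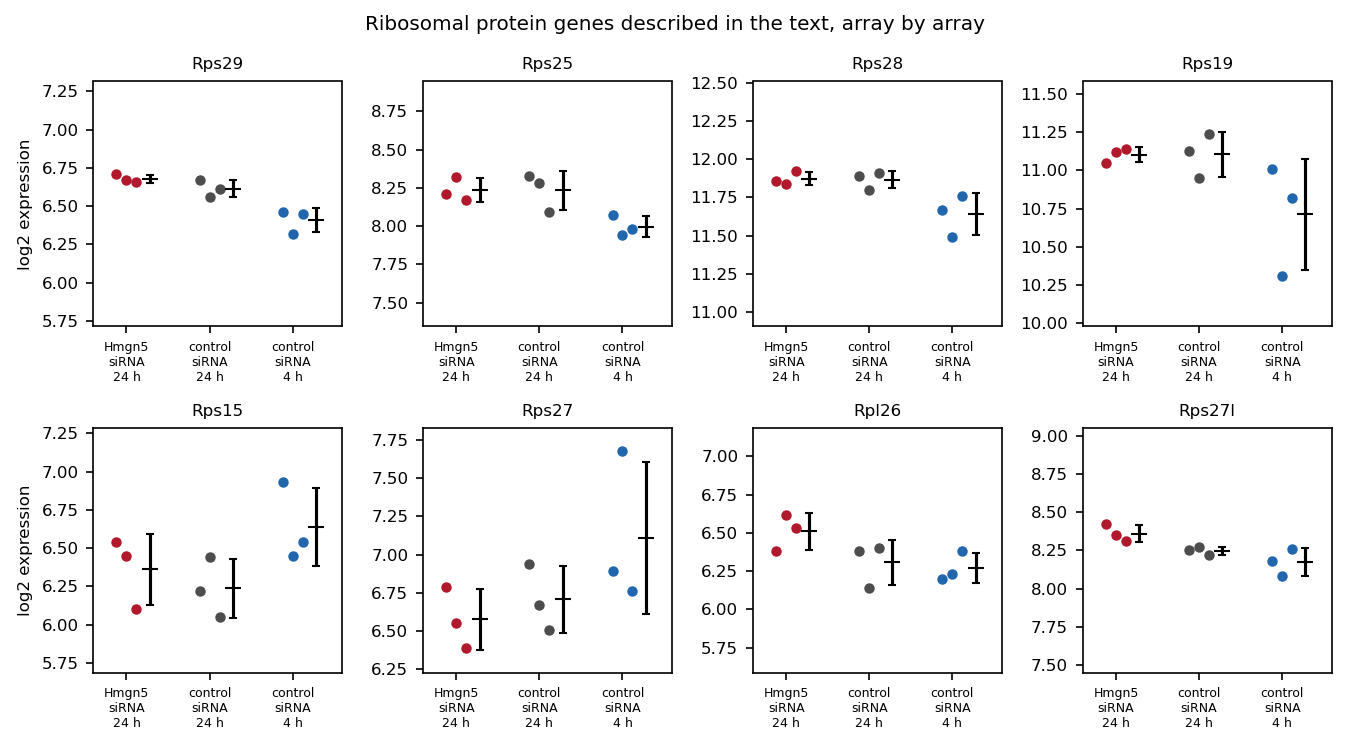
Log2 expression (vertical) of 8 genes on each array, in Hmgn5 siRNA cells at 24 h (red), control cells at 24 h (grey) and control cells at 4 h (blue); bars give the mean and SD of 3 arrays, and each panel spans 1.6 log2 units. The 3 blue points lie below the 3 grey points for Rps29, Rps25 and Rps28 and above them for Rps15, and 1 blue point lies far from its group for Rps19 and Rps27. Each gene is shown by its brightest probe set, and a dimmer one of Rps28 gave -0.26 over time.

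The array that stood apart weighed on this family. Control 4 h replicate 2 held the lowest of the 9 values for 29 of the 68 members (42.6%), against 22.6% of all genes. It was at either extreme for 39 members (57.4%), against 44.5% of all genes. It lay more than 0.5 below the mean of the other 4 h arrays for 7 members (10.3%; 3.92% of all genes) and more than 0.5 above it for 1 (1.47%; 2.55% of all genes). Averaged over the 68 genes, the distance from the 24 h control mean was 0.02, 0.01 and 0.03 on the Hmgn5 siRNA arrays, 0.04, -0.03 and -0.01 on the control arrays at 24 h, and -0.01, -0.11 and -0.02 on the control arrays at 4 h. The second 4 h array was thus the lowest of 9 by this measure, and its part in the time differences is given gene by gene next.

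Rpl3, which reaches into the catalytic centre of the large subunit, deviated most. It had 11.89, 11.89 and 11.84 in control cells at 24 h, against 12.05, 10.91 and 11.78 at 4 h. The second 4 h array lay 1.01 below the mean of the other 4 h arrays, and the difference over time was 0.29 with this array and -0.04 without it. Rps3, at 10.59, 9.96 and 10.63 at 4 h, gave 0.26 with the array and 0.04 without it, and Rplp1, at 11.20, 10.52 and 11.09, gave 0.27 and 0.06. Rpl13 gave 0.18 and 0.00, Rpl14 0.18 and 0.02, Rps23, a protein of the decoding centre, 0.22 and 0.04, and Rps16 0.15 and -0.02. Rps27 was the member that deviated upwards. It had 6.94, 6.67 and 6.51 at 24 h, against 6.89, 7.68 and 6.76 at 4 h, and its difference was -0.41 with the array and -0.12 without it. None of these differences passed in either case.

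The third contrast set Hmgn5 siRNA cells at 24 h against the 4 h controls. It changes siRNA and time together and shares arrays with both others. By limma 0 of 68 members were called, where 2.57% of all genes were, 1.52% higher and 1.04% lower. At an unadjusted p under 0.05 there were 12 members (17.6%), and 15.7% of all genes. Leaving out 1 array moved that count to between 4, when Hmgn5 siRNA replicate 3 was dropped, and 17, when control 4 h replicate 1 was. It was 7 when either the second 4 h array or the second knockdown array was left out. The median was 0.06, with 48 above 0, against 51.9% of all genes. All arrays of one group lay above all of the other for 13 members, in each case with Hmgn5 siRNA at 24 h higher, where 18.9% of all genes were apart, 10.3% higher and 8.59% lower. The 95% interval lay within 1.5-fold for 60 members and for 91.9% of all genes. Rps29 came closest to a call, with 6.71, 6.67 and 6.66 in Hmgn5 siRNA cells at 24 h, against 6.46, 6.32 and 6.45 in control cells at 4 h, a difference of 0.27 (SE 0.06, adjusted p = 0.0543). It passed with array weights (adjusted p = 0.0258) and with the dimmest 33% of genes removed (adjusted p = 0.0379). Its knockdown difference at 24 h was 0.07 (SE 0.06). Rps27 had the lowest value in this contrast, at -0.53 (SE 0.22, adjusted p = 0.281), and Rps19 the highest, at 0.39 (SE 0.16). Without control 4 h replicate 2 these were -0.25 and 0.19, and Rps29 was at 0.23.

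Second probe sets gave a check within the arrays. Of the 68 genes, 24 had more than 1 probe set of their symbol alone, 108 probe sets in all, but 7 of these repeated the values of another, so 23 genes had a distinct second reading. Only the 2 brightest distinct readings of a gene were compared, and any dimmer ones were left out of these counts. The 2 readings had the same sign for 16 of 23 genes at knockdown and for 13 of 23 over time. Their correlation across the 9 arrays had a median of 0.07, from -0.90 for Rpl13 to 0.99 for Rpl7a. Both readings come from the same arrays. In 16 of the 23 genes the second reading was over 3 log2 units dimmer. With each of 23521 probe sets tested on its own, 0 of the 108 were called in any of the 3 contrasts. Among the readings not compared, a dimmer Rpl35 probe set had 6.03, 5.88 and 5.79 in control cells at 24 h. At 4 h it had 6.29, 6.19 and 6.08, all higher. Its time difference was -0.29 (limma adjusted p = 0.111), where the 2 compared readings gave 0.10 and 0.11. A dimmer Rpl3 probe set gave 0.09 over time, where the 2 compared gave 0.29 and -0.46.

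Rpl3 and Rpl13 had readings that went opposite ways. The second Rpl3 probe set had 8.65, 8.53 and 8.39 in control cells at 24 h, against 8.95, 9.26 and 8.75 at 4 h. There the 4 h arrays were all higher, by a mean difference of -0.46 (adjusted p = 0.0765), where the brighter probe set gave 0.29. The second Rpl13 probe set had 6.34, 6.13 and 6.16 at 24 h, against 6.40, 6.94 and 6.52 at 4 h. It differed by -0.41 (adjusted p = 0.121), where the brighter one gave 0.18. On control 4 h replicate 2 both genes were thus at their lowest by one probe set and at their highest by the other. Rps28 differed by -0.26 in its second reading and 0.23 in its first, with a mean of both of -0.01, while Rps19 gave 0.18 and 0.39.

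**Figure D5:**
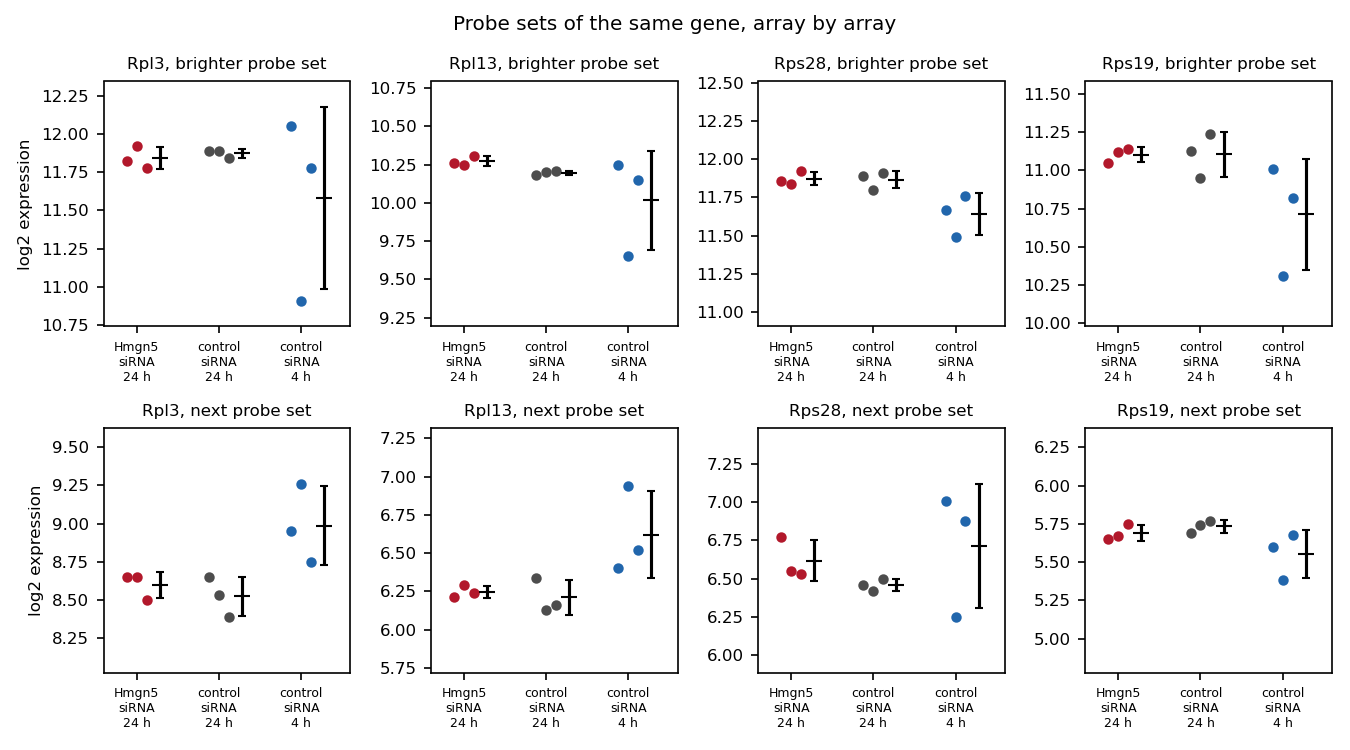
Log2 expression (vertical) by the brighter probe set (top) and the next one (bottom) of 4 genes, array by array, in Hmgn5 siRNA cells at 24 h (red), control cells at 24 h (grey) and control cells at 4 h (blue); bars give the mean and SD of 3 arrays, and each panel spans 1.6 log2 units. For Rpl3 and Rpl13 the second blue point is the lowest at the top and the highest at the bottom.

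Genes with a tract at the annotated start were set beside those without one. The 11 with a tract had knockdown differences between -0.12 and 0.06 with a median of 0.02, and the 42 others between -0.14 and 0.20 with a median of 0.03. Over time the medians were 0.03 for the 11 and 0.06 for the 42. Of the genes printed above, Rpl15 differed by 0.02 at knockdown and 0.14 over time, and Rps6 by 0.03 and -0.07. Rpl28 differed by 0.06 and -0.01, and Rpl35, by its brightest probe set, by 0.05 and 0.10. The dimmer Rpl35 probe set described above gave 0.13 and -0.29. The tract acts on translation, which these arrays do not measure.

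Related genes outside the symbol rule gave a wider view. Rpsa and Fau, a small subunit protein that doubles as a laminin receptor and one made as a ubiquitin-like fusion, differed by -0.01 and 0.03 at knockdown and by -0.06 and 0.12 over time. Of 19 other mRNAs known to carry a TOP tract, such as elongation factor genes, 13 lay above 0 at knockdown and 10 over time, with 0 called in both. Of all genes 49.2% and 54.9% lay above 0, and 0.0135% and 4.34% were called. Eef1d, a subunit of the elongation factor that recharges eEF1A, differed by 0.16 over time (adjusted p = 0.26), and Eif3e, an initiation factor subunit, by -0.17 (adjusted p = 0.253).

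The mitochondrial ribosome has its own proteins, and 71 of their genes were measured. At knockdown 59 of the 71 lay above 0, with a median of 0.05 and 0 called, and 3 had an unadjusted p under 0.05 (4.23%, against 5.25% of all genes). After cyclic loess 55 lay above 0, and after median centring 64. Mrpl36 had 7.39, 7.34 and 7.33 in Hmgn5 siRNA cells, against 7.17, 7.21 and 7.14 in control cells at 24 h, and 7.21, 7.04 and 7.09 at 4 h. The knockdown arrays were all higher, by a mean of 0.18 (limma adjusted p = 0.859). Over time 31 of the 71 lay above 0, with a median of -0.02 and 0 called, and 15 had an unadjusted p under 0.05 (21.1%, against 18.0% of all genes). Mrps22 had the smallest of these, with a difference of -0.26 (adjusted p = 0.0693). Of all genes 49.2% lay above 0 at knockdown and 54.9% over time, and 0.0135% and 4.34% were called. How the 2 ribosomes' gene sets differ was not tested.

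Of 11 genes for chaperones and importins of ribosomal proteins, 2 were called over time, when 4.34% of all genes were. Ltv1, an assembly factor of the small subunit, had 9.23, 9.22 and 9.22 in control cells at 24 h, against 9.74, 10.05 and 9.69 at 4 h, and 9.46, 9.41 and 9.59 in Hmgn5 siRNA cells. It fell by 0.60 between the times (limma adjusted p = 0.00977), and its knockdown difference of 0.26 did not pass (adjusted p = 0.926). Ipo9, an importin that carries ribosomal proteins into the nucleus, had 10.09, 10.02 and 10.05 at 24 h, against 9.82, 9.73 and 9.82 at 4 h. It rose by 0.27 (adjusted p = 0.0314), a call kept in 2 of 9 fits that each left out 1 array (adjusted p 0.0371 to 0.111). At knockdown 0 of the 11 were called, where 0.0135% of all genes were.

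Of 18 genes of mTORC1 and translation control, Mlst8, a subunit of mTOR complexes, was the one called over time, a share near the 4.34% of all genes. It had 8.45, 8.52 and 8.53 in control cells at 24 h, against 8.93, 8.81 and 8.91 at 4 h, and fell by 0.38 (limma adjusted p = 0.00963). In Hmgn5 siRNA cells it had 8.69, 8.66 and 8.63, above every control array at 24 h, a difference of 0.16 that did not pass (adjusted p = 0.926). Ltv1 and Mlst8 were called in all 9 fits without 1 array. Free ribosomal proteins can stabilize p53, and of 9 p53 target genes Cdkn1a, a cell cycle inhibitor, was called over time, 1 of 9 beside 4.34% of all genes. It had 10.34, 10.28 and 10.40 at 24 h, against 10.76, 10.50 and 10.80 at 4 h, and fell by 0.34 (adjusted p = 0.0468). That call was kept in 1 of 9 fits without 1 array, and the adjusted p ran from 0.00522 to 0.157. Over time 4 of the 9 lay above 0 and 5 below, from -0.34 to 0.46. Trp53inp1 differed by 0.28 and Mdm2 by -0.30, and neither passed. At knockdown 0 of the 18 and 0 of the 9 were called, where 0.0135% of all genes were.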

How the data were processed

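Total RNA (270 ng a sample) had been amplified, labelled with biotin and hybridised to Affymetrix whole-transcript arrays, per the labels' protocols. Per the submitters' processing notes, the deposited log2 values came from oligo and RMA, which corrects background, quantile-normalizes and sums up probes; versions are not given in the sources used here. Values were used as deposited. The annotation gave 1 symbol to 23521 of 41345 probe sets. Tests used limma 3.58.1 in R 4.3.3 (lmFit and eBayes, group means, 9 arrays in 1 fit, 9.55 moderated degrees of freedom). A call is a Benjamini-Hochberg adjusted p under 0.05 over 22180 genes. The number of arrays limits the precision. Members and lists were chosen with earlier results of these data known. By rule the text could name, per contrast, the 6 members above 0 and the 6 below 0 with the smallest p, the stalk, paralogues and their parents, members whose probe sets disagree, and up to 4 genes of each companion list. Other members were named for their role or their array values, after these were seen. The companion lists were counted and not tested as sets. The fit was also run on simulated data with independent errors. Those data held no outlying array and no pairing, so that run cannot speak to either. Alternatives were a replicate block, other priors, weights, filters, scalings and probe set rules, and leaving out each array.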

Additional observations from a re-analysis of the deposited data

How the results depend on the processing

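The count of 0 members called (of 68, of the 65 left once the dimmest 33% of genes were removed, or of 108 probe sets tested singly) held under all 19 alternatives at knockdown and over time, and in the third contrast under all but 2: array weights and removal of the dimmest 33% of genes each called 1, Rps29. The median difference over time was 0.02 after median centring and between 0.02 and 0.07 when 1 array was left out, with 0.02 without control 24 h replicate 1 or control 4 h replicate 2. Hmgn5 itself no longer passed when control 24 h replicate 1 was left out (adjusted p = 0.0558), nor without Hmgn5 siRNA replicate 2 (0.0552) or 3 (0.0506), in a range of 0.000209 to 0.0558. Hmgn5 was among the dimmest 33% and had no value under that filter. With the replicate number as a block, 0 members were called and the Hmgn5 call was kept. At knockdown the block gave 1 member an unadjusted p under 0.05, against 0 in the main fit, and 68 intervals within 1.5-fold. Same-numbered samples were not taken as paired in the main fit. Of 9 same-numbered pairs 2 correlated over 0.1 (0.00851 to 0.285), both between the 24 h groups. Yet samples correlated best with their own number in 16 of 18 cases, so a pairing was not excluded. Over all genes the block called 1 at knockdown, 893 over time and 505 in the third contrast. Counts over all genes (3, 963 and 569) moved more: at knockdown to 5 with a trend and robust prior, 7 with array weights, 2 with the 2 groups alone or the filter, 1 with a minimum change of 1.2-fold and 0 to 2 without 1 array; over time to 1685 with array weights, 280 with the groups alone, 65 with the minimum change and 310 to 1238 without 1 array; in the third contrast to 1226, 113, 28 and 165 to 784. Members with an interval within 1.5-fold at knockdown numbered 62 to 68 without 1 array, 68 without control 4 h replicate 2. Averaging a gene's probe sets turned the time difference of Rpl13 to -0.11 and of Rps28 to -0.01. Of 37 members named by rule, 15, 14 and 10 changed sign under at least 1 setting at knockdown, over time and in the third contrast. Of the 71 mitochondrial ribosomal protein genes, array weights called 3 lower over time, and the filter and median centring 1 each; in the third contrast array weights called 4 higher, the trend and robust prior 2, and the filter, cyclic loess and leaving out control 24 h replicate 3 or control 4 h replicate 2 called 1 each. Signal over background was not estimated.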

Other observations

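The 12 standard proteins read only by probe sets of several genes gave 27 such probe sets, whose values mix the genes named on them. In a fit over all 41345 probe sets, limma called 0 at knockdown and 0 over time, with 1 and 4 at an unadjusted p under 0.05. Shares over all 41345 were not counted. In the main fit over genes 0.0135% and 4.34% were called, and 5.25% and 18.0% reached that unadjusted p. Knockdown differences ran from -0.18 to 0.38, with 17 above 0, and time differences from -0.46 to 0.30, with 15 above 0. A probe set that names Rpl24, a protein at the bridge between the subunits, had 9.34, 9.38 and 9.17 in control cells at 24 h, against 9.54, 9.71 and 9.63 at 4 h. All 24 h values were lower, by a mean difference of -0.33 (adjusted p = 0.0944). Dimmer probe sets that name Rpl24 went the other way over time, by 0.11 and 0.08. One that names Rps2, a protein of the mRNA entry, had 7.76, 7.73 and 7.51 in Hmgn5 siRNA cells, against 7.41, 7.44 and 7.01 in control cells at 24 h and 7.92, 7.44 and 7.90 at 4 h. Its knockdown difference was 0.38 (limma adjusted p = 1.0), and its time difference was -0.46 (adjusted p = 0.244). Another probe set that names Rps2 differed by 0.04 at knockdown and by 0.14 over time. Both probe sets that name Rps21 and reached an unadjusted p under 0.05 over time were higher at 24 h, by 0.30 and 0.21.

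Among the 10 measured genes whose human counterparts are mutated in Diamond-Blackfan anaemia, 6 lay above 0 at knockdown and 5 over time, with 0 called in both. For all genes the shares above 0 were 49.2% and 54.9%, and those called 0.0135% and 4.34%. Of the 6 measured markers of the line, 2 were called over time, where 4.34% of all genes were. Dbh rose by 0.80 between 4 h and 24 h (limma adjusted p = 0.00534), and Th rose by 0.53 (adjusted p = 0.0188). The Th call was kept in 6 of 9 fits that each left out 1 array (adjusted p 0.0111 to 0.0774). The other 4 did not pass: Gata3 differed by 0.19, Isl1 by 0.05, Mycn by -0.06 and Hand2 by -0.15. Every 24 h control array of Gata3 lay above every 4 h array, and every one of Hand2 lay below.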
